A study of Mus musculus with 4 samples.

Results

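Chromatin accessibility was described at 9 genes of 3 families of immediate-response transcription factors, Klf2, Klf4 and Klf6, Egr1, Egr2 and Egr3, and Nr4a1, Nr4a2 and Nr4a3, in microglia with and without IRF8. The members were taken by gene name. Every deposited peak that overlapped a gene body or the 20 kb on either side of it (GRCm38, GENCODE M21) was kept. Overlapping peaks of the 4 libraries were joined into regions, which gave 148 regions at the 9 genes of 388087 in all. The number per gene ran from 6 at Egr2 to 26 at Nr4a1.

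Immediate-response genes are transcribed within minutes of a stimulus, without new protein synthesis, because their promoters are kept open and are acted on by factors already present in the cell. Serum response factor (SRF) with its ternary complex partners, which bind the CArG box and neighbouring ETS sites, and CREB are the classical activators of the Egr and Nr4a genes. The Klf proteins are zinc-finger factors that bind GC-rich and CACCC sequences, and in macrophages Klf2 and Klf4 are known for restraining or shaping inflammatory activation. The Egr proteins are zinc-finger factors that accompany macrophage differentiation and activation, and the Nr4a proteins are orphan nuclear receptors that limit inflammatory gene expression in myeloid cells. IRF8 is an interferon regulatory factor that binds DNA mostly with a partner such as the ETS factor PU.1, and it is needed for the normal state of microglia, which are brain macrophages.

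The assay was ATAC-seq, in which the transposase Tn5 inserts sequencing adapters into open chromatin. Of the 4 libraries, 2 were labelled WT and 2 IRF8KO, all from untreated microglia of C57BL/6 mice aged 3 months, isolated without enzymes and sorted by flow cytometry. The labels do not say how the IRF8KO allele was made, whether it was lost in all cells, or whether the replicates came from separate mice, so the spread between replicates may be technical. The file headers gave 46948938 and 48896408 tags for WT replicates 1 and 2, and 78793572 and 66224648 for IRF8KO replicates 1 and 2. Depth therefore followed genotype, as did the tag size of 50 bp in WT and 49 bp in IRF8KO, and neither can be told apart from it. The promoter of Irf8 itself was open in every library, with a summit pileup per 1000000 tags of 2.07 and 1.49 in WT and 0.863 and 1.36 in IRF8KO, which does not check the deletion. All 10 promoters of microglia markers held a strict peak (deposited -log10 q of 2 or more) in each of the 4 libraries.

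The value of a region in a library is its tag-scaled pileup, the depth of extended cut sites at the highest single base per 1000000 tags. It is a height at a base and is not summed over length, so genes can be set side by side. One library stood apart on this scale. Over the 58732 regions with a peak in all 4 libraries, the median log2 tag-scaled pileup was -0.38 and -0.70 in WT replicates 1 and 2, -1.21 in IRF8KO replicate 1 and -0.53 in IRF8KO replicate 2. The median log2 difference, IRF8KO minus WT, was -0.31 over all regions. Calls were therefore made on the tag-scaled values and again with the library medians made equal, which moved that median to 0.02. A difference given without a scale is tag-scaled. Where 4 values are listed, they stand for WT replicates 1 and 2 and then IRF8KO replicates 1 and 2.

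Of the 148 regions, 96 held a strict peak in at least 1 library, 58 had a peak in all 4 libraries and could be tested, and 54 of these were strict in all 4. Another 58 had a peak in 1 library only. The 9 genes together held 74 and 78 strict peaks in WT and 78 and 81 in IRF8KO, 76 ± 2.83 against 79.5 ± 2.12 (SD, n = 2 each), with a two-sided exact permutation p of 0.667, where 0.333 is the smallest this design can give. The median log2 difference of the 58 regions was -0.33 on the tag-scaled values, beside -0.31 for all regions.

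On the tag-scaled values, limma called 2 of the 58 regions lower in IRF8KO (3.45%) and 1 higher (1.72%), at an adjusted p under 0.05 over all 58732 regions. The background was 6.82% lower and 2.8% higher. With equal medians 8 were lower (13.8%) and 9 higher (15.5%), beside 11.7% and 13.5% of all regions. Both IRF8KO libraries lay below both WT libraries at 20 regions (34.5%, background 37.2%) and above them at 5 (8.62%, background 11.8%). These shares lie near the background and are not a result about the 9 genes. The tag-scaled counts moved when a library was left out. Limma called 0 regions in either direction without WT replicate 1 (background 0.245% lower and 0.209% higher) or WT replicate 2 (0.635% and 0.169%), although at the 3 called regions the log2 differences stayed about as large. At an unadjusted p under 0.05, limma gave 0 lower and 1 higher without WT replicate 1 (background 4.23% and 2.52%), 2 and 1 without WT replicate 2 (7.0% and 1.57%), and 9 and 5 with all 4 (14.6% and 5.63%). There were 1 lower and 4 higher without IRF8KO replicate 1 (background 5.7% and 6.37%), and 13 lower and 2 higher without IRF8KO replicate 2 (21.2% and 2.65%). With equal medians, the counts lower and higher were 4 and 7 without WT replicate 1 (background 8.02% and 9.79%), 4 and 6 without WT replicate 2 (7.81% and 10.2%), 7 and 5 without IRF8KO replicate 1 (8.5% and 8.21%), and 5 and 11 without IRF8KO replicate 2 (8.37% and 10.1%). The same call was made in all 4 of these fits at 7 of the 17 regions: Klf6 -15.7 and +9.0 kb, Egr1 +5.7 kb, Nr4a1 -22.6 and -18.7 kb, Nr4a2 +7.2 kb and Nr4a3 +55.3 kb. Distances are from the transcription start to the summit, negative upstream.

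**Figure D1:**
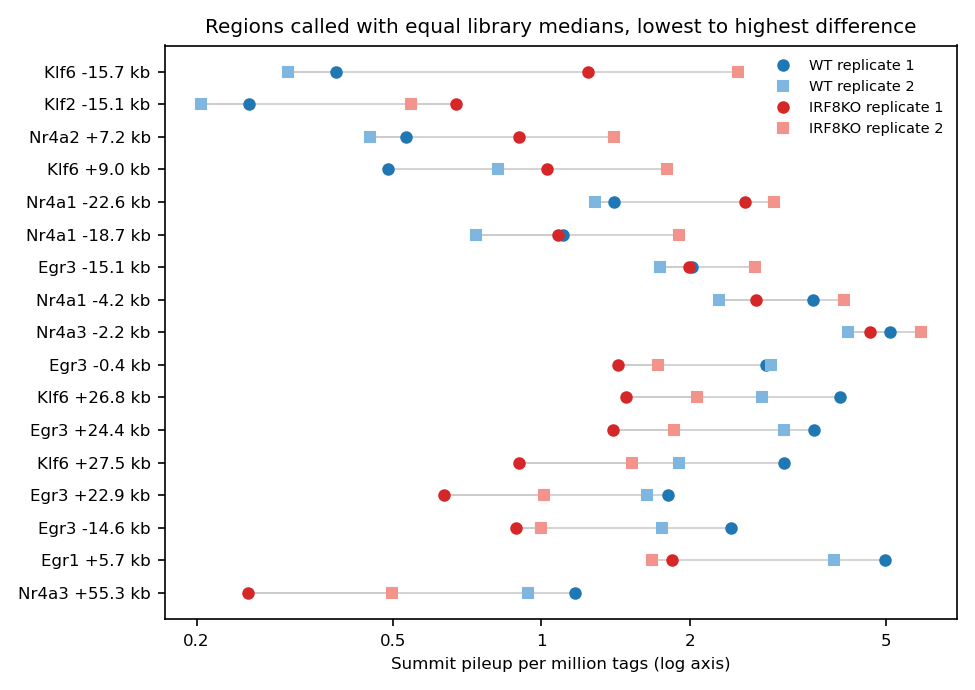
Summit pileup per 1000000 tags (log axis) at the 17 regions of the 9 genes called by limma with equal library medians, ordered from the largest rise in IRF8KO at the top to the largest fall at the bottom. Circles and squares are the libraries of WT (blue) and IRF8KO (red), and at Egr3 -15.1 kb, Nr4a1 -18.7 kb, Nr4a1 -4.2 kb and Nr4a3 -2.2 kb the plotted values of the genotypes overlap.

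The sequences at the summits are shown for some of the called or genotype-specific regions, 201 bp each, read from the GRCm38 genome. They were not picked by size of difference alone. With equal medians, Klf2 -15.1 kb (log2 1.73) and Klf6 +9.0 kb (1.43) rose more than Nr4a1 -22.6 kb (1.37) and are not shown. Capitals mark motif letters that a search of both strands found. The first 4 regions had higher peaks in both IRF8KO libraries, or peaks in these alone at Klf2 +3.5 kb, and of them Klf6 -15.7 kb was called on the tag-scaled values. Capitals mark an interferon response element (ISRE, GAAANNGAAA) and a CEBP motif (TTGCNNAA) at Klf2 +3.5 kb, an AP-1 motif (TGAGTCA) at Klf6 -15.7 kb, a CEBP motif at Nr4a1 -22.6 kb, and an ISRE and a KLF motif (CCACNCCC) at Nr4a2 +7.2 kb.
Klf2 +3.5 kb (chr8:72322464-72322664, + strand): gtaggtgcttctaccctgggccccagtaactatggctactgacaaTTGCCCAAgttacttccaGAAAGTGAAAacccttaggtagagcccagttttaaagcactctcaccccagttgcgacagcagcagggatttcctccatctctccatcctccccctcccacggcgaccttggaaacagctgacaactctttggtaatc
Klf6 -15.7 kb (chr13:5845723-5845923, + strand): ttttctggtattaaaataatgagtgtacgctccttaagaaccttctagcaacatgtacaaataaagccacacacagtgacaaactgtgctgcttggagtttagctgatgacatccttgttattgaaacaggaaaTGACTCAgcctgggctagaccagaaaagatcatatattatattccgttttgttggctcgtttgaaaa
Nr4a1 -22.6 kb (chr15:101244101-101244301, + strand): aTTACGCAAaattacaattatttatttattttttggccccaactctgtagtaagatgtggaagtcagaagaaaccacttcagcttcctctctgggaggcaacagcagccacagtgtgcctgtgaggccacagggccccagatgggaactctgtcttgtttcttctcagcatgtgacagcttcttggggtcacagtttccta
Nr4a2 +7.2 kb (chr2:57116742-57116942, + strand): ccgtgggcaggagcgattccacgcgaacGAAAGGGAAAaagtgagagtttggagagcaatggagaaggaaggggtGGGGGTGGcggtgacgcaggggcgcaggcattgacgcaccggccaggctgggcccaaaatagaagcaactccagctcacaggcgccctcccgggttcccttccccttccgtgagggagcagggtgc

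The next 2 had lower tag-scaled values in both IRF8KO libraries, although the first was not called on that scale. Capitals mark an ETS-IRF composite element (GGAANNGAAA), the kind of site at which IRF8 can bind with PU.1, at Klf6 +26.8 kb, and a PU.1 motif (GAGGAAGT) at Nr4a3 +55.3 kb. With equal medians, Klf6 +27.5 kb and Egr3 -14.6, +22.9 and +24.4 kb fell more than Klf6 +26.8 kb and are not shown. None of these held an ETS-IRF composite element, and a PU.1 motif lay only at Egr3 +24.4 kb.
Klf6 +26.8 kb (chr13:5888143-5888343, + strand): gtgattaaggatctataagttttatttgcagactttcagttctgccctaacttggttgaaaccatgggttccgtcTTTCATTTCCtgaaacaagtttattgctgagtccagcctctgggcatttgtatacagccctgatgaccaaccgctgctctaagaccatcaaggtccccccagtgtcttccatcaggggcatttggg
Nr4a3 +55.3 kb (chr4:48100347-48100547, + strand): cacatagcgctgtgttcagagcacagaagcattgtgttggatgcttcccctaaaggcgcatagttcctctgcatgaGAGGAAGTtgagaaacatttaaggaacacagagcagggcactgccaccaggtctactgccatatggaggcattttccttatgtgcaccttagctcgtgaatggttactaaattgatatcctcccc

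The strongest promoter of the 9 genes is added for comparison, with a MEF2 motif (CTANNNNTAG) in capitals.
Klf6 -0.2 kb, the promoter (chr13:5861194-5861394, + strand): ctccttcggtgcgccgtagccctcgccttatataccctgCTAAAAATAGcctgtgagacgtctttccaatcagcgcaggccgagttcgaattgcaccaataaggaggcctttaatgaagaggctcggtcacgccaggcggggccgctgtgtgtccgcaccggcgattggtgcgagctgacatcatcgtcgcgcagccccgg

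The promoters of all 9 genes were open in every library, with a strict peak in each. Their height was ranked among 12352 protein-coding promoters, those with a value in all 4 libraries. It placed Klf6 at the 95.5th percentile, Klf2 at 87.9, Egr2 at 84.7, Egr1 at 74.4 and Nr4a2 at 67.8. Klf4 stood at 66.6, Nr4a3 at 56.5, Egr3 at 54.3 and Nr4a1 at 51.8. Klf6 was the highest of the 9 in each of the 4 libraries. Neighbours in this order were not always separable: Nr4a2 and Klf4 changed places between the WT libraries, and Egr3 lay above Nr4a3 in both WT libraries and below it in both IRF8KO libraries. With all 4 libraries, limma called none of the 9 promoters on the tag-scaled values. At an unadjusted p under 0.05 there was 1, on the lower side, beside 14.6% of all regions. With equal medians it called 1 lower, that of Egr3, beside 11.7% of all regions. The tag-scaled log2 differences depended on 1 library. Without IRF8KO replicate 2 they were -0.91 and -1.01 at the promoters of Klf6 and Egr3, beside -0.42 and -0.88 with all 4. In bulk libraries such as these, a lower value from fewer cells with an open site and from less opening per cell cannot be told apart.

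**Figure D2:**
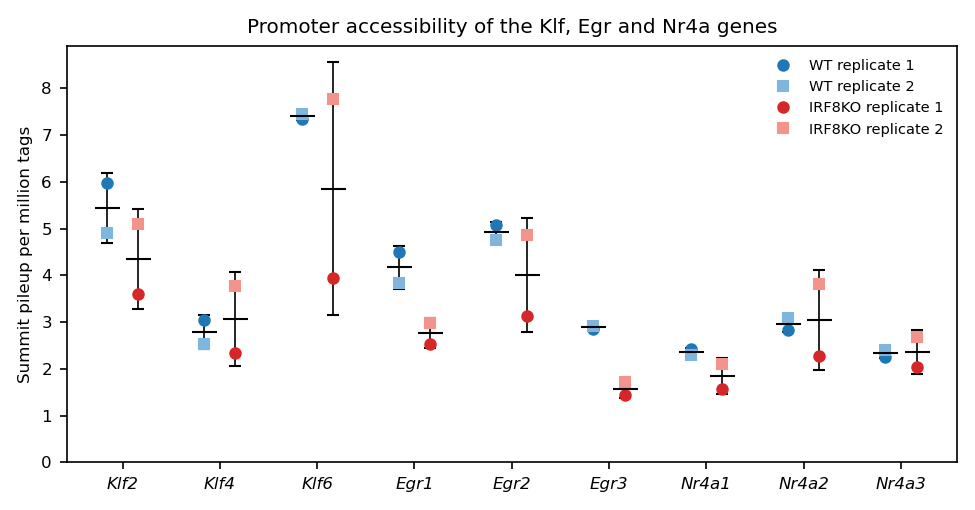
Summit pileup per 1000000 tags at the promoter region of each gene, 1 point per library, with the mean (wide bar) and SD (n = 2) of each genotype. WT and IRF8KO overlap at Klf2, Klf4, Klf6, Egr2, Nr4a2 and Nr4a3, while both IRF8KO libraries lie below both WT libraries at Egr1, Egr3 and Nr4a1.

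Klf2 (chromosome 8, 72319033 to 72321656), the factor best known from quiescent T cells and endothelium, had a tag-scaled promoter pileup of 5.96 and 4.91 in WT and 3.59 and 5.10 in IRF8KO. These overlapped, and the log2 difference was -0.34 ± 0.39 (SE, limma adjusted p = 0.693), or -0.01 with equal medians. What differed at Klf2 lay on either side of the promoter. Downstream at +3.5 kb, a region of 492 bp between Klf2 and Eps15l1 held peaks of 2.42 and 2.81 in the IRF8KO libraries, and no deposited peak in either WT library. The weakest peaks deposited for the WT libraries within 5 kb were at 0.767 and 0.614, below these values. A smaller IRF8KO-specific region lay at -1.2 kb, at 0.736 and 0.966, with a PU.1 motif. Here the weakest WT peaks nearby, again 0.767 and 0.614, were about as high, so a WT signal somewhat below the IRF8KO one could have gone without a peak.

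In the opposite direction, the WT libraries held peaks at Klf2 +1.3 kb in the intron (1.04 and 0.757) and at +4.3 kb (1.04 and 0.839) where neither IRF8KO library had one. The weakest IRF8KO peaks within 5 kb reached 0.533 and 0.966 near the first and 0.533 and 2.81 near the second. In IRF8KO replicate 2 that lies between the WT peaks at the first and above both at the second, so these 2 absences are not firm. Further upstream at -15.1 kb, beside the start of Gm10282, the pileup was 0.256 and 0.205 in WT and 0.673 and 0.544 in IRF8KO. Both IRF8KO libraries were higher, by 1.40 ± 0.53 on the log2 scale, tag-scaled (limma adjusted p = 0.0707). It was called with equal medians (1.73 ± 0.35, adjusted p = 8.61e-05), though not without IRF8KO replicate 1 (1.23, 0.0614). Tag-scaled, it was called without IRF8KO replicate 2 (1.56, 0.0104). Its summit held a CEBP motif.

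Klf4 (chromosome 4, 55527143 to 55532466), a factor of monocyte differentiation and of pluripotency, had no called region. Its promoter stood at 3.05 and 2.54 in WT and 2.35 and 3.78 in IRF8KO, and its strongest region, over coding sequence at +2.1 kb, at 4.58 and 3.54 against 3.33 and 5.27. In both the IRF8KO libraries enclosed the WT range. A downstream region at +17.6 kb had 2.56, 2.45, 1.59 and 2.42, with a log2 difference of -0.36 ± 0.42 (limma adjusted p = 0.703). The 4 tested regions of Klf4 were called under neither scaling. The IRF8KO-specific region at -13.7 kb was faint, at 0.152 and 0.272, close to the weakest WT peak within 5 kb (0.143 in WT replicate 2, and none in WT replicate 1).

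Klf6 (chromosome 13, 5861482 to 5870394), the Klf gene abundant in macrophages, held the largest change of the 58 regions. At -15.7 kb the pileup was 0.383 and 0.307 in WT and 1.24 and 2.51 in IRF8KO. Both IRF8KO libraries were higher than both WT libraries, by 5.15-fold (log2 2.36 ± 0.50, limma adjusted p = 1.27e-04), and by 6.45-fold with equal medians (adjusted p = 5.15e-12). The tag-scaled call was lost without WT replicate 1 (adjusted p = 0.182) or WT replicate 2 (0.251), although the log2 difference was 2.53 and 2.20 there. A second group of IRF8KO-higher peaks lay past the 3' end of the gene. At +9.0 kb the values were 0.490, 0.818, 1.03 and 1.80, higher in both IRF8KO libraries and called with equal medians (log2 1.43 ± 0.27, adjusted p = 2.86e-05). At +10.1 kb an IRF8KO-specific region had 0.660 and 1.01, with WT peaks as weak as 0.170 and 0.205 called within 5 kb. At +14.2 kb only WT replicate 2 (0.225) had a peak beside IRF8KO peaks of 0.660 and 1.25, and this region could not be tested.

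The Klf6 locus also held the opposite pattern. Within the intron of the non-coding gene Gm47507, the region at +26.8 kb had 4.03 and 2.80 in WT and 1.48 and 2.07 in IRF8KO, and its neighbour at +27.5 kb had 3.11 and 1.90 against 0.901 and 1.53. WT was higher in both. Tag-scaled, the log2 differences of -0.94 ± 0.42 and -1.05 ± 0.44 did not pass (limma adjusted p = 0.156 and 0.119), and with equal medians they did (-0.61 and -0.73, adjusted p = 0.0121 and 0.00648). The first lost the equal-medians call without WT replicate 1 (adjusted p = 0.225), WT replicate 2 (0.0545) or IRF8KO replicate 2 (0.0843), and the second without WT replicate 1 (0.241) or IRF8KO replicate 1 (0.0634). The log2 differences in these fits were -0.51, -0.71 and -0.51 at the first and -0.53 and -0.69 at the second. Tag-scaled, both were called without IRF8KO replicate 2 (0.0105 and 0.00206). With the deposited fold enrichment over the local background the differences shrank to -0.12 and -0.23 (adjusted p = 0.839 and 0.750). This ratio is the unscaled summit height plus 1 over the authors' local background plus 1, a form that the deposited values follow. The added 1 weighs less in a deeper library, and the IRF8KO libraries were the deeper ones. The implied background at the first was 0.222 and 0.167 per 1000000 tags in WT and 0.0876 and 0.131 in IRF8KO. The promoter between these flanks had 7.35 and 7.44 in WT, 3.93 in IRF8KO replicate 1 and 7.76 in IRF8KO replicate 2, so that the IRF8KO libraries differed from each other more than from WT (log2 -0.42 ± 0.38, adjusted p = 0.597). Leaving out IRF8KO replicate 1 turned that difference to 0.07, and leaving out IRF8KO replicate 2 made it a call (-0.91, adjusted p = 0.0444).

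**Figure D3:**
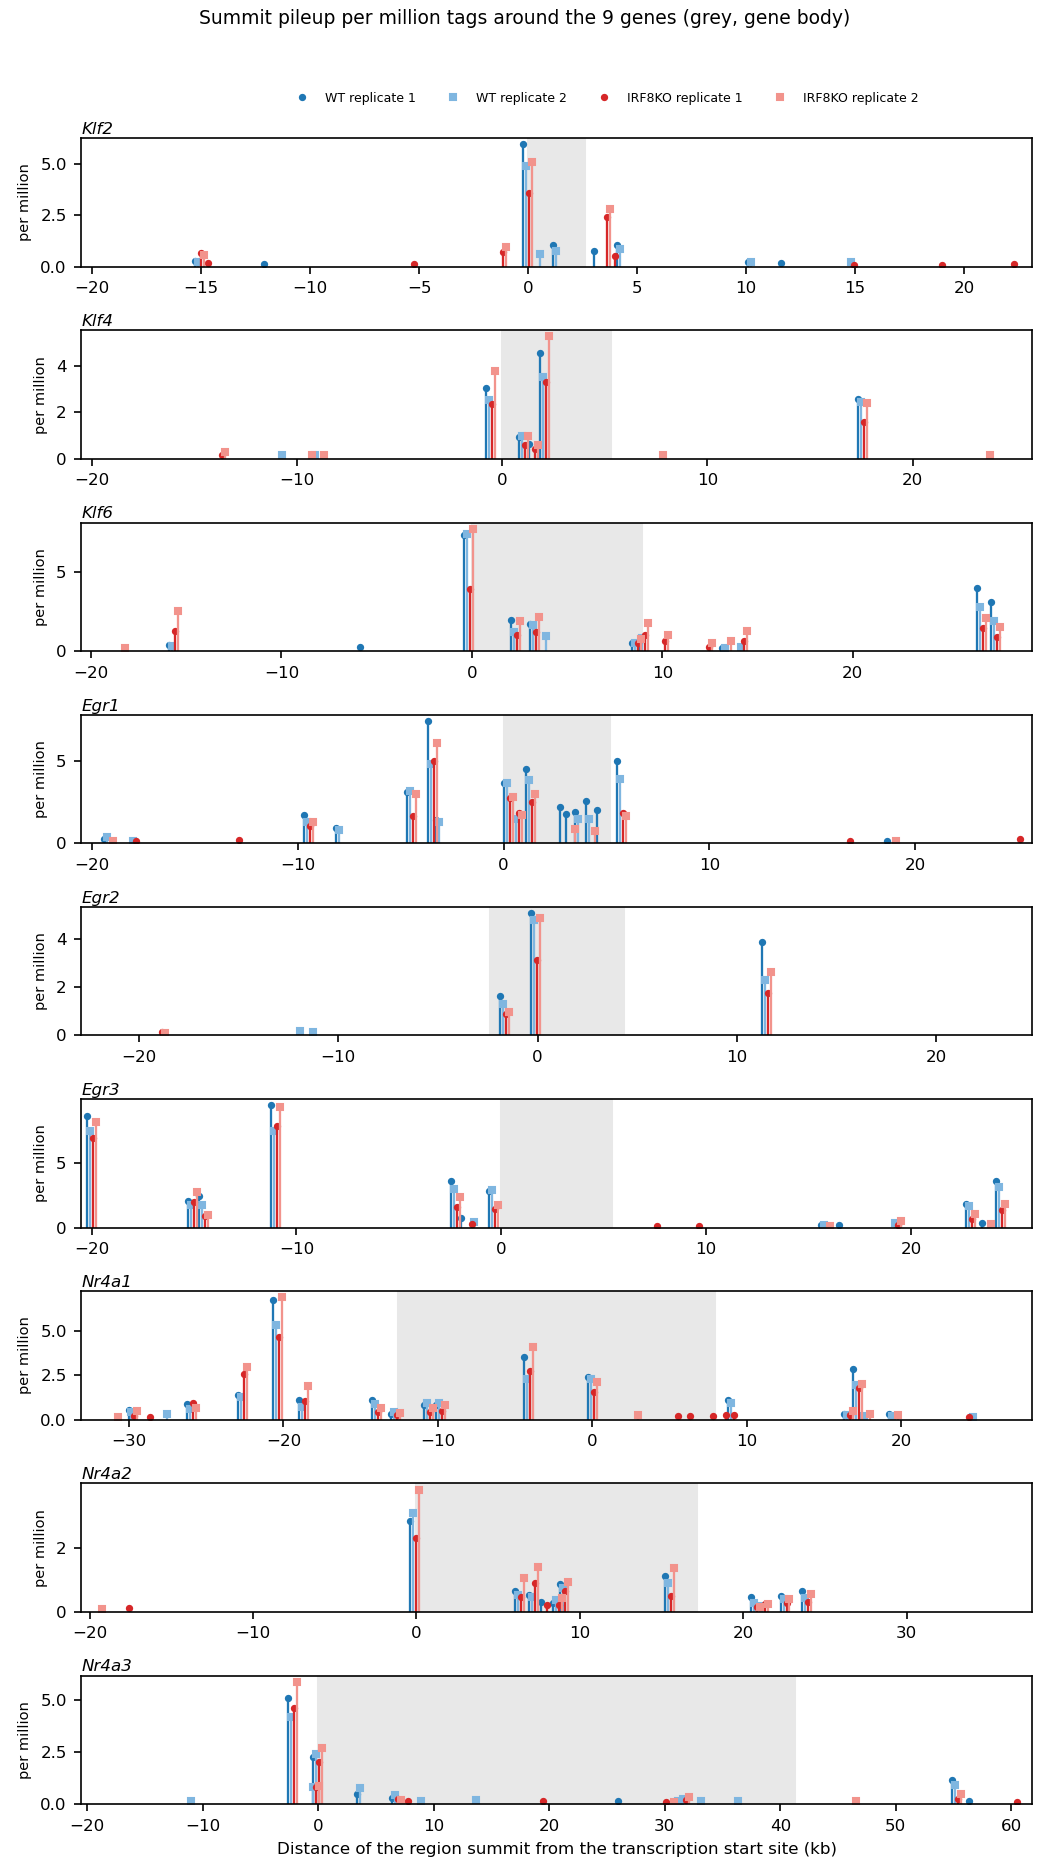
Summit pileup per 1000000 tags of every region at the 9 genes, against the distance of the summit from the transcription start in kb (gene bodies in grey, direction of transcription to the right, each panel with its own vertical scale). The 4 libraries of a region are drawn slightly side by side, and a missing line means that the library had no deposited peak there, as for WT at Klf2 +3.5 kb.

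Egr1 (chromosome 18, 34859823 to 34864984), the prototype SRF target among the zinc-finger factors, had lower values in IRF8KO at both of its starts and past its end. At the annotated 5' end (+0.2 kb) the pileup was 3.68 in both WT libraries and 2.77 and 2.82 in IRF8KO, and at an internal start at +1.3 kb, the stronger of the pair, it was 4.49 and 3.84 against 2.54 and 2.99. WT and IRF8KO did not overlap at either, but the log2 differences of -0.40 ± 0.40 and -0.59 ± 0.40 did not pass (limma adjusted p = 0.646 and 0.442), nor did those with equal medians (-0.07 and -0.27, adjusted p = 0.844 and 0.317). Of 6 regions tested, all 6 had a negative tag-scaled log2 difference, 5 with equal medians, and at 5 both IRF8KO libraries lay below both WT libraries, as at 37.2% of all 58732 regions, whose median tag-scaled difference was itself negative (-0.31). Between the starts, the region at +0.7 kb went the other way and could not be tested, with 1.85 and 1.69 in IRF8KO, 1.47 in WT replicate 2 and no peak in WT replicate 1.

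Past the 3' end, Egr1 +5.7 kb was called under both scalings. This region of 1550 bp had 4.98 and 3.93 in WT and 1.84 and 1.68 in IRF8KO, lower in both IRF8KO libraries by 2.52-fold (log2 -1.33 ± 0.41, limma adjusted p = 0.0174) and by 2.01-fold with equal medians (adjusted p = 6.79e-05). The tag-scaled call was lost without either WT library (adjusted p = 0.9999 without WT replicate 1 and 0.564 without WT replicate 2), with log2 differences of -1.16 and -1.50 there. Within the gene, a weak peak at +3.7 kb (1.90 and 1.47) and a stronger one at +4.2 kb (2.60 and 1.49) were present in both WT libraries, and of these only the second had an IRF8KO peak, at 0.770 in IRF8KO replicate 2. Since the weakest peaks of IRF8KO replicate 1 within 5 kb were at 1.84, a missing peak there does not show missing signal. Upstream, the strongest region at -3.4 kb, with a PU.1 motif, did not follow this pattern, with 7.46 and 4.81 in WT and 4.99 and 6.09 in IRF8KO (log2 -0.12 ± 0.38, adjusted p = 0.901). WT-specific regions lay at -7.9 kb (0.937 and 0.777, beside weakest IRF8KO peaks of 0.165 and 1.30 within 5 kb) and -3.0 kb (1.38 and 1.29). The weakest IRF8KO peaks within 5 kb of the latter, 1.64 and 1.69, were higher than the WT peaks. At -7.9 kb this held for IRF8KO replicate 2, so neither absence is firm.

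The fold enrichment gave another picture of Egr1. At +5.7 kb it was 4.33 and 4.54 in WT and 4.82 and 4.26 in IRF8KO, overlapping between the genotypes (log2 0.03, limma adjusted p = 0.978). The local background that these ratios imply was 1.13 and 0.849 per 1000000 tags in WT and 0.372 and 0.382 in IRF8KO. The implied background of this region was thus lower in IRF8KO by about as much as the summit. It is taken from the library's own tags over 10000 bp, with this peak among them. A lower peak lowers it too, so it is not a separate measure of the surroundings. At the internal start the implied background (1.40 and 1.01 against 0.586 and 0.645) was lower by more than the summit, and the fold enrichment was higher in both IRF8KO libraries, with 3.18 and 3.74 in WT and 4.26 and 4.55 in IRF8KO, but not called (log2 0.32, adjusted p = 0.644). Both IRF8KO libraries had a lower local background than both WT libraries at 6 of 6 tested regions of Egr1, 3 of 3 of Egr2, 4 of 8 of Egr3, 1 of 2 of Klf2, 0 of 4 of Klf4, 2 of 8 of Klf6, 2 of 13 of Nr4a1, 3 of 9 of Nr4a2 and 1 of 5 of Nr4a3. This made 22 of the 58 regions, beside 25.9% of all 58732, with backgrounds compared at 3 significant digits. Both were higher at 6 of the 58, 3 at Klf6 and 3 at Nr4a1, beside 12.6% of all. The median ratio of the mean backgrounds, IRF8KO over WT, was 0.672 at Egr1, 0.703 at Egr2 and 0.766 at Egr3, beside 0.939 over the 58 regions and 0.977 over all. At Egr3 the 4 regions from -20.0 to -11.0 kb overlapped between the genotypes. Neighbouring regions share the window over which the background is taken, so these are not independent counts.

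Egr2 (chromosome 10, 67535475 to 67542188), the factor of hindbrain and Schwann cell development that also marks alternatively activated macrophages, had few regions. Its promoter stood at 5.07 and 4.77 in WT and 3.13 and 4.86 in IRF8KO, and the genotypes overlapped (log2 -0.33 ± 0.39, limma adjusted p = 0.701). A region in its intron at -1.7 kb had 1.64, 1.29, 0.876 and 0.951, higher in both WT libraries but not called (-0.67 ± 0.47, adjusted p = 0.457). Downstream at +11.5 kb, on the side of Ado, the values were 3.86, 2.31, 1.76 and 2.61. None of its 3 tested regions was called under either scaling.

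At Egr3 (chromosome 14, 70077203 to 70082614), a factor induced downstream of antigen and growth factor receptors, the promoter had 2.85 and 2.92 in WT and 1.43 and 1.72 in IRF8KO. Both IRF8KO libraries lay below both WT libraries, by 1.84-fold (log2 -0.88 ± 0.42, limma adjusted p = 0.209 tag-scaled, and -0.55 ± 0.20, adjusted p = 0.036, with equal medians). The equal-medians call was lost without WT replicate 1 (0.0526), WT replicate 2 (0.445) or IRF8KO replicate 2 (0.296), with log2 differences of -0.73, -0.38 and -0.34. Its fold enrichment overlapped, with 8.65 and 11.1 in WT and 9.75 and 10.6 in IRF8KO (log2 0.0534, adjusted p = 0.956), and the implied background was lower in IRF8KO, 0.311 and 0.245 against 0.136 and 0.149. The region at -2.2 kb was lower in the same way (3.64, 2.96, 1.60 and 2.36) without being called under either scaling.

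The tallest peaks of all 148 regions stood upstream of Egr3 and were not called under either scaling. At -11.0 kb, with an ISRE, a CArG box and a CEBP motif within 100 bp of the summit, the pileup was 9.48, 7.51, 7.84 and 9.32 (log2 0.02 ± 0.37, limma adjusted p = 0.985). At -20.0 kb, inside an intron of Pebp4, it was 8.65, 7.49, 6.94 and 8.21 (-0.09 ± 0.38, adjusted p = 0.922). Between them, 2 adjoining regions went opposite ways with equal medians. The region at -14.6 kb was lower in IRF8KO (2.43 and 1.76 against 0.888 and 0.997, adjusted p = 0.00438), and that at -15.1 kb was higher (2.02 and 1.74 against 1.99 and 2.72, adjusted p = 0.0117), with overlapping tag-scaled values at the second. Neither kept the call in every fit without 1 library. Downstream, 2 regions in a UTR and an intron of Bin3, +22.9 and +24.4 kb from Egr3, were lower in IRF8KO with equal medians (adjusted p = 0.00794 and 0.00298). With the fold enrichment their log2 differences were -0.38 and -0.32 (limma adjusted p = 0.57 and 0.38), beside -1.10 and -1.05 tag-scaled. Neither region kept the equal-medians call in every fit without 1 library. They are nearest to Bin3, not to Egr3.

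Nr4a1 (chromosome 15, 101254269 to 101274795), the receptor also called Nur77 and used as a reporter of acute activation, had a promoter pileup of 2.43 and 2.29 in WT and 1.57 and 2.11 in IRF8KO. WT was higher without overlap, but the log2 difference of -0.37 ± 0.43 (limma adjusted p = 0.692) fell to -0.05 with equal medians. The strongest region of the locus, at -20.4 kb, overlapped between the genotypes, with 6.75, 5.32, 4.64 and 6.89 (log2 -0.08 ± 0.38, adjusted p = 0.931). Beside it, the region at -22.6 kb had 1.41 and 1.29 in WT and 2.59 and 2.96 in IRF8KO. Both IRF8KO libraries were higher, by 2.06-fold (log2 1.04 ± 0.43, adjusted p = 0.115 tag-scaled), or 2.58-fold with equal medians (adjusted p = 4.32e-07). Equal medians also called the regions at -18.7 kb (1.11, 0.736, 1.08 and 1.90) and in an intron at -4.2 kb (3.56, 2.29, 2.73 and 4.11) as higher. The genotypes overlapped in both on the tag-scaled values. Only the first kept the call in every fit without 1 library. At -4.2 kb the log2 difference ran from 0.40 to 0.71 in these fits. At +9.0 kb, near Atg101, the 2 WT peaks of 1.11 and 0.961 faced a single IRF8KO peak of 0.241, and this region could not be tested.

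Nr4a2 (chromosome 2, 57106830 to 57124003), the receptor also called Nurr1, known in dopaminergic neurons and as a brake on microglial inflammation, had a promoter of 2.83 and 3.09 in WT and 2.28 and 3.80 in IRF8KO. WT lay within the range of the IRF8KO libraries, and the log2 difference was -0.0046 ± 0.41 (limma adjusted p = 0.997). A region of 777 bp inside the gene at +7.2 kb had 0.533 and 0.450 in WT and 0.901 and 1.40 in IRF8KO. Both IRF8KO libraries were higher, by 2.30-fold tag-scaled (log2 1.2 ± 0.51, adjusted p = 0.125) and by 2.88-fold with equal medians (adjusted p = 8.28e-06), while its fold enrichment was 4.40 and 4.38 in WT and 8.16 and 9.42 in IRF8KO (log2 1.0, adjusted p = 0.130). The other 7 regions of Nr4a2 tested outside the promoter were not called under either scaling.

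Nr4a3 (chromosome 4, 48045153 to 48086447), the receptor also called Nor1, had a promoter of 2.26 and 2.41 in WT and 2.03 and 2.69 in IRF8KO, with a log2 difference of 0.0012 ± 0.42 (limma adjusted p = 0.999). Its strongest region, at -2.2 kb, had 5.09, 4.19, 4.64 and 5.89, overlapping between genotypes and called higher with equal medians (0.50 ± 0.17, adjusted p = 0.019) but not there without WT replicate 1 (0.211), WT replicate 2 (0.165) or IRF8KO replicate 1 (0.163), with log2 differences of 0.48, 0.53 and 0.33. The region at +55.3 kb, past the end of the gene and nearest to the start of Stx17, had 1.17 and 0.941 in WT and 0.254 and 0.498 in IRF8KO. It was lower in both IRF8KO libraries by 2.95-fold (log2 -1.56 ± 0.52, adjusted p = 0.0333) and by 2.36-fold with equal medians (adjusted p = 6.27e-04), and the tag-scaled call was lost without WT replicate 1 (adjusted p = 0.9999), WT replicate 2 (0.627) or IRF8KO replicate 1 (0.0972), where the log2 differences were -1.40, -1.72 and -1.07. The implied local background here was 0.039 to 0.0401 per 1000000 tags in the 4 libraries, at or near the lowest found at the tested regions of the 9 genes, so the fold enrichment repeats the pileup and is no further measure. A WT-specific region at +3.8 kb had 0.490 and 0.757, with IRF8KO peaks as weak as 0.152 and 0.196 called within 5 kb.

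In all, 5 regions at the 9 genes were WT-specific and 4 IRF8KO-specific, that is, strict in both libraries of one genotype with no deposited peak in the other. These were 5.21% and 4.17% of the 96 regions with a strict peak, beside 5.59% and 3.87% of the 155258 such regions of the genome. WT-specific regions lay at Klf2 (2), Egr1 (2) and Nr4a3 (1), and IRF8KO-specific regions at Klf2 (2), Klf4 (1) and Klf6 (1). At a stricter -log10 q of 5, which lower peaks pass in the deeper IRF8KO libraries, no WT-specific and 3 IRF8KO-specific regions were left. Shares over all regions were not counted at this q or with a library left out. These counts are therefore not a result about the 9 genes. The WT-specific count rose to 9 without WT replicate 1 and 8 without WT replicate 2, and the IRF8KO-specific count to 9 without WT replicate 2, 7 without IRF8KO replicate 1 and 8 without IRF8KO replicate 2, since fewer libraries then had to agree.

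**Figure D4:**
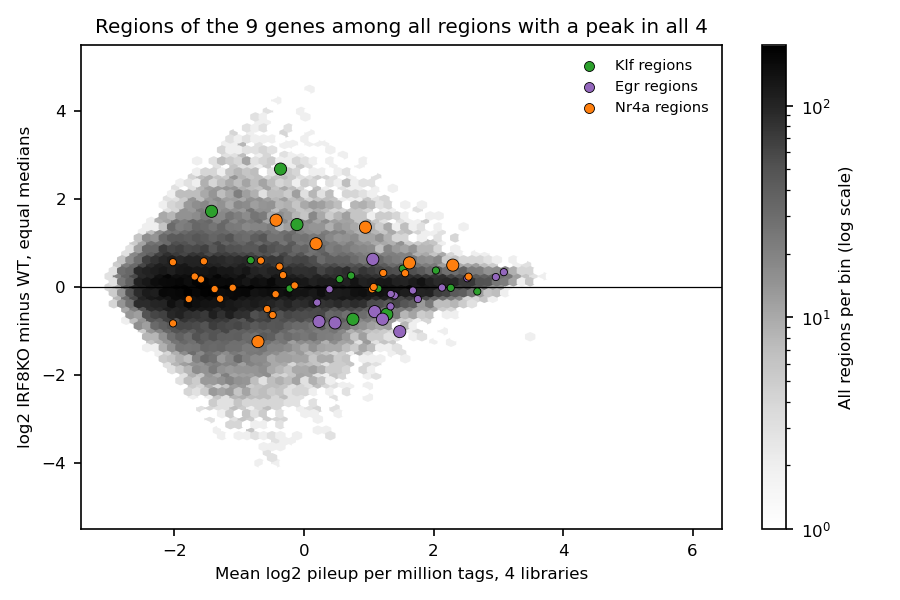
The log2 difference with equal library medians (IRF8KO minus WT) against the mean log2 pileup per 1000000 tags over the 4 libraries, for all 58732 regions with a peak in all 4 (grey, number per bin) and for the 58 at the 9 genes (Klf green, Egr purple, Nr4a orange, larger where called). The called regions include Klf6 -15.7 kb at 2.69 and Nr4a3 +55.3 kb at -1.24, and most regions of the 9 genes lie near 0.

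By family, the 14 tested Klf regions had a median log2 difference of -0.10 tag-scaled and 0.23 with equal medians, the 17 Egr regions -0.51 and -0.18, and the 27 Nr4a regions -0.08 and 0.24, beside -0.31 and 0.02 for all 58732 regions. With equal medians, 5 Egr regions were called lower and 1 higher, 1 Nr4a region lower and 5 higher, and 2 Klf regions lower and 3 higher, where the background on this scale was 11.7% lower and 13.5% higher. The differences between families were not tested, and regions of a gene share its surroundings.

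Within 100 bp of the summit, 5 of the 58 regions held a CArG box (8.62%), beside 1.08% of all 58732 regions. An EGR motif (GCGNGGGCG) lay at the Nr4a1 and Nr4a2 promoters and at Nr4a1 -20.4 kb, 5.17% beside 2.49% of all regions. ETS-IRF composite elements were found at 3 of 58 (5.17%, beside 3.98%), at Klf6 +3.3 and +26.8 kb and Egr1 -4.5 kb. ISREs were found at 3 of 58 (5.17%, beside 3.21%), at Egr3 -11.0 kb, Nr4a1 -10.6 kb and Nr4a2 +7.2 kb. The ETS-IRF composite and the ISRE share the second part of their letters, but no region of the 58 held both. AP-1, PU.1, CEBP and MEF2 motifs were found at 6.90%, 8.62%, 8.62% and 6.90% of the 58, beside 6.15%, 10.6%, 9.51% and 3.19%. The KLF motif was at 5.17% beside 9.09% and the E-box (CACGTG) at 1.72% beside 5.27%. RUNX (AACCACA), MAF (TGCTGAC) and NF-kB (GGGANNTTCC) motifs were at 6.90%, 3.45% and 1.72%, beside 5.74%, 5.46% and 1.22%. None of the 58 held the NBRE to which Nr4a proteins bind (AAAGGTCA, 0.909% of all) or a full CRE (TGACGTCA, 1.09%). An NBRE lay at the untested region Nr4a3 +30.4 kb, which had a weak peak in IRF8KO replicate 2 alone. In the RefSeq promoter table (GRCm38, windows around each start), 7 of the 9 genes were matched, and of these an EGR motif was present at Klf2, Klf4, Nr4a1 and Nr4a2 (5.56% of 32817 promoters) and a CArG box at Egr2 (1.63%). These are matches of letters, not measured binding.

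The other genes of the pathway were taken from lists. Of 17 related genes, further Klf and Egr genes and the Egr corepressors Nab1 and Nab2, 15 had a promoter region and 13 could be tested. Of 19 other immediate-early genes, among them Fos, Jun and Dusp1, 18 could be tested, and of 17 upstream activators, among them Srf, Creb1 and the ternary complex factors, 15 could. Limma called no promoter of these 46 on the tag-scaled values, and 1 had an unadjusted p under 0.05, on the lower side, beside 14.6% of all regions. With equal medians, the promoters of Klf9 (2.85, 2.56, 2.75 and 3.73, log2 0.57), Klf10 (7.39, 6.58, 7.46 and 9.75, log2 0.62), Klf12 (0.490, 0.348, 0.520 and 0.846, log2 1.01), Ier3 (0.809, 1.04, 1.17 and 1.51, log2 0.86) and Btg2 (3.41, 2.76, 3.22 and 4.21, log2 0.59) were called higher. That of Elk3, a ternary complex factor, was called lower (1.73, 1.55, 0.685 and 1.09, log2 -0.60). Their median promoter difference with equal medians was 0.18, 0.015 and 0.00097 in the order of the lists. Counting every region within 20 kb, limma called 1 lower and 1 higher of 83 around the Klf and Egr genes, 4 and 5 of 154 around the immediate-early genes, and 6 and 1 of 131 around the activators, tag-scaled, beside 6.82% and 2.8% of all regions. With equal medians the counts were 5 and 15, 13 and 20, and 13 and 13, beside 11.7% and 13.5%.

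Markers of other cells were read at their promoters in the same way. Border macrophage markers summed to 0.831 and 0.675 in WT and 1.76 and 2.70 in IRF8KO, with 3 of 4 promoters present and no peak at Cd163. Pf4 was called higher in IRF8KO (0.447 and 0.327 against 1.30 and 1.89, limma adjusted p = 0.00153). Mrc1 was higher in both IRF8KO libraries but called with equal medians alone of the scalings (0.213 and 0.205 against 0.470 and 0.664, adjusted p = 0.0610 tag-scaled and 6.03e-05 with equal medians), and Lyve1 had 0.170 and 0.143 in WT, no peak in IRF8KO replicate 1 and 0.151 in IRF8KO replicate 2. The endothelial list summed to 7.01 and 6.07 against 1.56 and 2.45 but went both ways: Cdh5, which made up most of the WT sum, was called lower (5.86 and 4.81 against 0.647 and 0.936, limma adjusted p = 2.45e-08) and Pecam1 higher (0.192 and 0.245 against 0.533 and 0.876, adjusted p = 0.0236). Kdr was lower in both IRF8KO libraries (0.959 and 0.879 against 0.381 and 0.483) and called with equal medians (adjusted p = 0.0384 on that scale and 0.195 tag-scaled), with Cldn5 without a peak in a library of each genotype. Oligodendrocyte markers summed to 1.92 and 1.43 against 0.279 and 0.770, and astrocyte markers to 1.09 and 0.532 against 0.977 and 1.53. Within the latter, Aldh1l1 was called higher in IRF8KO (0.405 and 0.205 against 0.850 and 1.53, adjusted p = 0.00374), while Gfap had 0.426 and 0.327 in WT and a single IRF8KO peak of 0.127, and Slc1a2 a single peak, in WT replicate 1. Neuronal markers lay at 0.298 or below in each library, T or B cell markers at 0.149 or below, and those of monocytes or neutrophils at 0.405 or below, with 4 of those 6 without a promoter peak throughout. The microglia list itself summed to 28.6 and 20.4 against 14.2 and 22.1, with P2ry12 called lower in IRF8KO (3.73 and 2.37 against 0.749 and 1.39, adjusted p = 0.00766) and Trem2 called higher with equal medians (0.980 and 0.961 against 1.49 and 2.23, adjusted p = 1.5e-05 on that scale and 0.234 tag-scaled). Klf2, Klf4, Klf6 and the Egr and Nr4a genes are also used by several of these cells, and the part of other cells in the differences above was not tested.

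Promoters most like the members over the 4 libraries, by Euclidean distance of log2 tag-scaled pileup among 12352 protein-coding genes, were those of Zfp119a for Klf2, Gm3417 for Klf4, Lonrf1 for Klf6, Clasp1 for Egr1, Anapc4 for Egr2, Mad2l1bp for Egr3, Dgcr6 for Nr4a1, Ogt for Nr4a2 and Rfxank for Nr4a3. The distances ran from 0.0304 for Egr2 to 0.184 for Klf6. Mad2l1bp, for example, had 2.79 and 3.01 in WT and 1.40 and 1.83 in IRF8KO. These genes were picked for their likeness on the same 4 values, which supports nothing about either gene.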

How the data were processed

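ATAC-seq peak lists of 4 libraries, 2 WT and 2 IRF8KO, were used, 1 list per library, grouped by their labels. Per the submitters' processing notes the tools included bcl2fastq, Bowtie2, MACS2 2.1.1.20160309 and deepTools, and the build was mm10. Per the file headers, peak calling by the authors was run on single libraries with no control sample (p cutoff 0.01, cut sites moved by 37 bp and extended to 73 bp, background window 10000 bp, effective genome size 1.87e+09). The pileup column deposited by the authors is a signal: depth at a summit, read as unscaled because it held whole numbers in every list, although the headers also mention a signal scaled to read number. Their deposited fold column is the ratio of pileup plus 1 to the background near it plus 1, read from the values. The p and q columns were deposited as −log10 values. A header line says that no q was computed, yet the column was filled, and it was used to call a peak strict. A threshold on p or q is passed by lower peaks in a deeper library, and the IRF8KO libraries were deeper. The peak scores are the authors'.

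Overlapping peaks of any strength on the autosomes and X were joined into regions. The value of a region was its highest pileup per 1000000 of the header's tags, with no pseudocount. Only regions with a peak in all 4 libraries were tested, in one fit of limma 3.58.1 (lmFit, eBayes with trend, R 4.3.3) on log2 values with genotype as the only term and Benjamini-Hochberg adjustment over all of them. The fit was tested on regions simulated with the spread of the equal-medians values and no shift between libraries. This does not test the tag-scaled fit, where the libraries are shifted. Promoter regions overlapped the 500 bp on either side of a start, taking the start of highest pileup. Motifs were searched within 100 bp of the best summit on both strands for 15 patterns, with Python 3.11.15 and pysam 0.24.0. Depth is the tag number, and with 2 libraries a genotype, values carry SD (n = 2).

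The members, the lists of related genes, the cell type markers and the motifs were chosen with earlier results of these data known. Named at each gene were the promoter, the 3 tallest regions, those called on the tag-scaled values and the genotype-specific ones, up to a limit of 30. Regions called only with equal medians, Egr1 gene body regions, those past the end of Klf6 and Nr4a1 +9.0 kb were also named after their values were seen. The correlation over regions of same-numbered deviations was 0.00245, so same-numbered libraries shared no pattern of regions. A shift of whole libraries would not show in it, and the labels do not say whether the numbers pair the libraries. Sequences on chromosome 18 are not printed, and some others are not reported here.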

Additional observations from a re-analysis of the deposited data

How the results depend on the processing

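The counts lower and higher in IRF8KO at the 9 genes, 2 and 1 on the tag-scaled values, became 8 and 9 with equal medians, 1 and 2 with the deposited fold enrichment in place of pileup (at Klf2 -15.1 and Nr4a3 +55.3 kb its background is at the minimum and it repeats the pileup), 12 and 6 when regions with a peak in at least 2 libraries were tested with missing values set to the lowest pileup of the library, and 1 and 0 with 10 kb flanks. They did not move when only regions strict in all 4 libraries, or unions of strict peaks, were used. With the replicate number as a block, limma called 0 and 0 regions on the tag-scaled values (2 and 2 at an unadjusted p under 0.05). With equal medians and the block it called 8 and 9, the counts without the block on that scale. Shares over all regions were not counted for the fold enrichment, the filled values or the block. Those counts are therefore not a result about the 9 genes. Leaving out each library in turn gave 0 to 13 lower and 0 to 4 higher, and, in fits chosen after seeing the data, 4 to 7 lower and 5 to 11 higher with equal medians. A lone library is assumed there to vary like the other group. The median log2 difference of the 58 regions then ran from -0.55 to 0.027, the last without IRF8KO replicate 1. WT-specific regions numbered 0 at -log10 q of 5 and 6 to 9 with a library left out, and IRF8KO-specific regions 4 to 9. Shares over all regions were not counted at these settings. The difference in strict peaks per library stayed between 1 and 7.5 under the alternatives run.

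Signs turned with the fold enrichment at Egr1 +0.2 (0.32), +1.3 (0.32) and +5.7 kb (0.0304), Egr2 -0.1 kb (0.22), Egr3 -2.2 (0.0888) and -0.4 kb (0.0534), Nr4a1 -4.2 kb (-0.0655) and Nr4a3 at the promoter (-0.001), and with equal medians at Nr4a1 +17.2 kb (0.0069) and Nr4a2 -0.1 kb (0.32). The log2 difference crossed 0 with a library left out at the promoters of Klf4 (-0.24 to 0.44), Klf6 (-0.91 to 0.0695), Nr4a2 (-0.37 to 0.36) and Nr4a3 (-0.20 to 0.20) and at Nr4a1 -4.2 kb (-0.0875 to 0.55). All of these except Egr1 +5.7 kb were uncalled on the tag-scaled values. The local background, lower in both IRF8KO libraries at all tested regions of Egr1 and Egr2 and at 4 of 8 at Egr3, enters the fold enrichment by construction, and the cause of the other turns was not tested. With 2 libraries a genotype the spread of a region is estimated with help of the other regions, and a region without a peak has no value.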
